A study of Homo sapiens with 9 samples.

Results

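TXNIP, ARRDC4 and ARRDC3 encode alpha-arrestins, and MLXIP, MLXIPL and MLX encode the glucose-responsive transcription factors that are known to drive TXNIP. These 6 genes were picked by symbol out of the 20379 genes of the expression table, with earlier results of the same libraries known. Their differences between the groups are therefore given as descriptions, without a test. All 6 had enough counts to enter the fit. The study asked how the transcriptome of HCCLM3 cells differs after knockdown of UXS1 or of MRPL42. HCCLM3 is an established human hepatocellular carcinoma line. UXS1 makes UDP-xylose, the first sugar donor of glycosaminoglycan chains, and MRPL42 is a protein of the mitochondrial ribosome. Polyadenylated RNA was sequenced from 3 libraries of cells given a non-targeting control siRNA, 3 given siRNA against UXS1 and 3 given siRNA against MRPL42. The labels name a single line, no second siRNA per target and no rescue. They do not tie the libraries to separate cultures, so the p-values below refer to variation among these 9 libraries, some of which may be technical.

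MLXIP (MondoA) and MLXIPL (ChREBP) are basic helix-loop-helix leucine zipper proteins that bind DNA as dimers with MLX. Glucose 6-phosphate and related sugars bring MondoA from the cytoplasm, where part of it sits at the outer mitochondrial membrane, into the nucleus. There the dimer binds carbohydrate response elements, and TXNIP and ARRDC4 are its best known targets. TXNIP binds and inhibits thioredoxin and, with ARRDC4, lowers glucose uptake by promoting the internalisation of glucose transporters. This makes the pathway a feedback loop in which glucose limits its own entry. In liver, ChREBP drives glycolytic and lipogenic genes after a carbohydrate meal. ARRDC3, an alpha-arrestin linked to receptor trafficking, is less closely tied to glucose.

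The promoters of TXNIP and ARRDC4 are shown because these genes had the lowest levels relative to control siRNA among the 6, and because the TXNIP promoter carries the element through which MondoA is known to act. Both are RefSeq sequences on GRCh38.p14, from base 250 to base 31 before the annotated start and read along the strand of the gene. The TXNIP run is chr1:145996610-145996829 on the minus strand and the ARRDC4 run is chr15:97960453-97960672 on the plus strand. Capitals mark, in TXNIP, a pair of E-box-like hexamers spelled CACGNG and a forkhead motif spelled GTAAACA, together with CCAAT boxes. In ARRDC4 they mark the E-box CACGTG, overlapping E-box-like hexamers and CCAAT boxes. ATTGG is a CCAAT box on the opposite strand.
TXNIP: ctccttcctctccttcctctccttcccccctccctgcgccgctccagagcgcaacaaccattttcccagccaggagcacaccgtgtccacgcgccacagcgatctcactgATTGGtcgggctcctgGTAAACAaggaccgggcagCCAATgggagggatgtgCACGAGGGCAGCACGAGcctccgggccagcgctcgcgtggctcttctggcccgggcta
ARRDC4: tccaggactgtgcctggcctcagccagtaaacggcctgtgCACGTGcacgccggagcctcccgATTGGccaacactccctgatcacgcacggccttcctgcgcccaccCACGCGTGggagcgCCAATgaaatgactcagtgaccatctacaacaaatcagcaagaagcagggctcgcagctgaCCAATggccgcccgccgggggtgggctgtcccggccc

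In TXNIP the pair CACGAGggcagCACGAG runs from base 88 to base 72 before the start, with CCAAT boxes beginning 140 and 105 bases before the start and the forkhead motif at 124. Motifs were searched on both strands of 35116 RefSeq windows of 300 bases, which hold 8 windows of the 6 genes. The 2 hexamers with a gap of 5 bases (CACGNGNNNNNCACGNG) were in 0.057% of windows, or 20, and among the 6 genes in TXNIP alone. This spelling was taken from the TXNIP element, so that match is by construction. A widened form of the published consensus (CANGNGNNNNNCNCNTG) was in 0.564% of windows and in 0 of the 6 genes. The plain E-box was in 7.26% of windows and, among the 6, in ARRDC4 at 210 bases and in MLX at 50 bases before the start. A single E-box-like hexamer, a spelling that includes the E-box, was in 30.5% of windows. CCAAT boxes were in 34.6% of windows and in 5 of the 6 genes, the exception being MLXIPL. The forkhead motif was in 3.42% of windows and in TXNIP and ARRDC3. These matches describe letters in a window and show no binding.

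TXNIP was lower in every library of both targeting siRNAs than in any control library. TXNIP (ENSG00000265972) lies on chromosome 1 of GRCh38 at 145992435 to 145996600, minus strand, in GENCODE 29. Levels are in CPM, counts scaled to the TMM-adjusted total of the tested genes. TXNIP was at 22.2, 25.2 and 18.1 CPM in control libraries a, b and c. It was at 12.9, 13.7 and 14.0 CPM in UXS1 siRNA libraries and at 12.01, 12.6 and 13.1 CPM in MRPL42 siRNA libraries. The groups did not overlap: the lowest control library stood above the highest of the 6 targeting libraries, while the targeting groups overlapped each other. The means were 21.8 ± 3.58 CPM with control siRNA (SD, n = 3), 13.6 ± 0.540 CPM with UXS1 siRNA (SD, n = 3) and 12.6 ± 0.540 CPM with MRPL42 siRNA (SD, n = 3). These bulk values cannot tell fewer cells that express a gene from less RNA per cell.

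The fitted log2 fold change of TXNIP against control was -0.69 (SE 0.12) with UXS1 siRNA and -0.80 (SE 0.12) with MRPL42 siRNA, or 62.1% and 57.6% of the control level. Between UXS1 and MRPL42 siRNA it was 0.11 (SE 0.12), smaller than its error. TXNIP rested on 186 to 464 counts per library, which gives a counting error of 4.64% to 7.33%. This covers counting alone, since amplified reads were not collapsed to molecules. Among the 12657 genes tested, the log2 fold change of TXNIP ranked 277 from the lowest with UXS1 siRNA and 184 with MRPL42 siRNA. Among the 10553 genes with a mean of at least 5 CPM it ranked 129 and 86. Both comparisons use the same control libraries, so these values are not independent of each other.

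**Figure D1:**
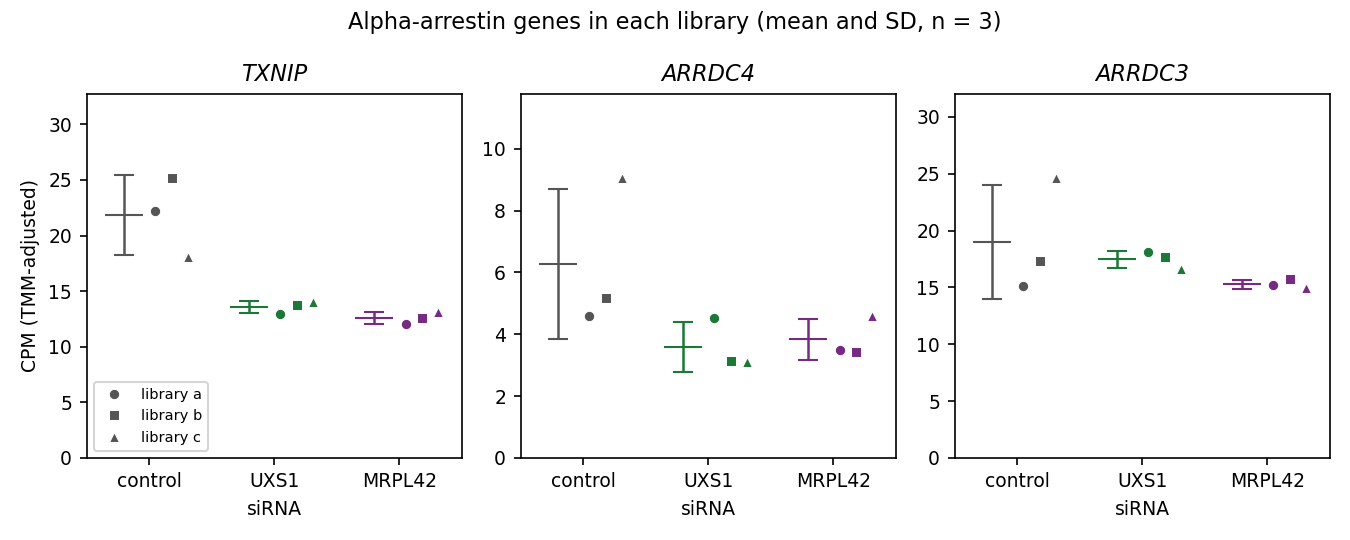
Levels of the 3 alpha-arrestin genes in each library, in CPM on a linear axis from 0, by siRNA group. Symbols are libraries a, b and c, and the horizontal line with its bar is the mean and SD (n = 3). TXNIP in the targeting groups lies between 12.01 and 14.0 CPM, below all controls, while control library c is the lowest control for TXNIP and the highest for ARRDC4 and ARRDC3.

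Control library c stood apart from all other libraries, and its arrestin levels differed from those of control libraries a and b in opposite directions. Across genes its log2 CPM correlated with the other libraries at r of 0.956 to 0.967, while every other library had a partner at 0.992 or above. Without library c the log2 fold change of TXNIP was -0.82 (SE 0.09) with UXS1 siRNA and -0.92 (SE 0.09) with MRPL42 siRNA, or 56.6% and 52.8% of control. Its rank from the lowest then moved to 92 and 47 of 12747 genes, and to 26 and 10 of those with at least 5 CPM. The difference was thus larger, not smaller, without the library that stands apart.

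ARRDC4, the other arrestin known as a direct MondoA target, also had its lowest values with the targeting siRNAs, but at a low level and with a spread set by 1 library. ARRDC4 (ENSG00000140450) lies on chromosome 15 at 97960698 to 97973838, plus strand. Its level was 4.59, 5.16 and 9.07 CPM in control libraries a, b and c. It was 4.53, 3.13 and 3.11 CPM with UXS1 siRNA and 3.49, 3.43 and 4.59 CPM with MRPL42 siRNA. All UXS1 siRNA libraries lay below all controls, though UXS1 siRNA library a was only just below control library a. MRPL42 siRNA library c equalled control library a at this precision, so those groups touched.

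Means of ARRDC4 were 6.27 ± 2.44 CPM with control siRNA (SD, n = 3), 3.59 ± 0.812 CPM with UXS1 siRNA (SD, n = 3) and 3.84 ± 0.656 CPM with MRPL42 siRNA (SD, n = 3). The log2 fold change was -0.81 (SE 0.28) and -0.70 (SE 0.28), and without control library c it was -0.46 (SE 0.20) and -0.34 (SE 0.20). Leaving out that library therefore reduced the difference of ARRDC4 while it enlarged that of TXNIP. ARRDC4 rested on 48 to 171 counts per library, a counting error of 7.65% to 14.4%. Between UXS1 and MRPL42 siRNA the log2 fold change was -0.10 (SE 0.29), below its error.

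ARRDC3 showed no difference between the targeting groups and control that exceeded the spread of the controls. ARRDC3 (ENSG00000113369) lies on chromosome 5 at 91368724 to 91383359, minus strand, and overlaps ARRDC3-AS1 on the opposite strand. The sources used here do not say whether counting used strand, so reads of that antisense RNA may be included. Its level was 15.1, 17.3 and 24.7 CPM in control libraries a, b and c, against 18.1, 17.7 and 16.6 CPM with UXS1 siRNA and 15.2, 15.7 and 14.9 CPM with MRPL42 siRNA. The log2 fold change with UXS1 siRNA was -0.12 (SE 0.16) and turned to 0.10 (SE 0.09) without control library c. With MRPL42 siRNA it was -0.32 (SE 0.16), and -0.09 (SE 0.09) without that library. All UXS1 siRNA libraries lay above all MRPL42 siRNA libraries, at a log2 fold change of 0.19 (SE 0.16). Of all tested genes, 10.1% were separate in this way, in either direction, between those groups.

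Ratios within a library do not depend on how libraries were scaled to each other. Levels of different genes were compared as CPM per kilobase of the principal transcript. On that scale TXNIP divided by ARRDC3 was 2.11 and 2.09 in control libraries a and b but 1.05 in control library c. It was 1.02 to 1.203 with UXS1 siRNA and 1.13 to 1.25 with MRPL42 siRNA. Control library c thus lay within the range of the targeting libraries by this ratio, which shows an unequal change of TXNIP and ARRDC3 and not which of them differed. ARRDC4 divided by ARRDC3 was 0.312, 0.307 and 0.378 in the controls, 0.182 to 0.257 with UXS1 siRNA and 0.224 to 0.316 with MRPL42 siRNA. By this ratio all UXS1 siRNA libraries were below all controls, and MRPL42 siRNA library c overlapped control libraries a and b.

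The transcript levels of the factors differed little between groups. MLXIP (ENSG00000175727, chromosome 12 at 122078722 to 122147347, plus strand) encodes MondoA. Its level was 156, 147 and 136 CPM in control libraries a, b and c, and 144 to 155 CPM over the 6 targeting libraries. All targeting libraries lay within the range of the controls. The log2 fold change was 0.02 (SE 0.07) with UXS1 siRNA and 0.06 (SE 0.07) with MRPL42 siRNA.

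MLXIPL (ENSG00000009950, chromosome 7 at 73593194 to 73624543, minus strand) encodes ChREBP, the paralogue that predominates in normal liver. Its level was 14.1, 11.4 and 12.2 CPM in controls, 12.03, 15.1 and 12.6 CPM with UXS1 siRNA and 13.2, 12.1 and 13.1 CPM with MRPL42 siRNA. The 3 groups overlapped, with log2 fold changes of 0.08 (SE 0.12) and 0.02 (SE 0.12) against control. The gene table gives 1 value for MLXIPL, so its alpha and beta isoforms are not distinguished. MLXIPL also overlaps AC005089.1, a sense intronic RNA on the same strand, whose reads may be included.

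MLX (ENSG00000108788, chromosome 17 at 42567068 to 42573239, plus strand) encodes the shared partner and overlaps PSMC3IP on the opposite strand. Reads of PSMC3IP may be included in the value of MLX. Its level was 89.3, 90.7 and 96.4 CPM in controls, 94.1, 97.6 and 96.3 CPM with UXS1 siRNA and 99.4, 90.6 and 99.6 CPM with MRPL42 siRNA. Log2 fold changes were 0.06 (SE 0.06) and 0.07 (SE 0.06), and the groups overlapped. Without control library c they were 0.08 (SE 0.06) and 0.09 (SE 0.06). All UXS1 siRNA libraries then lay above the remaining controls, while the MRPL42 siRNA libraries still overlapped them.

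**Figure D2:**
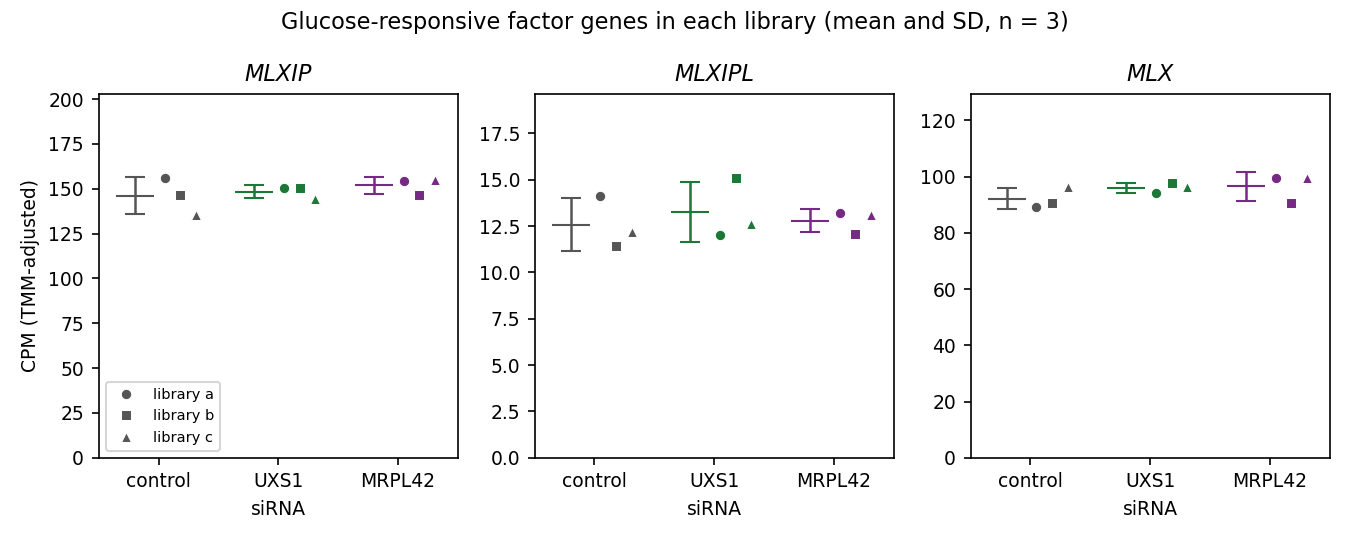
Levels of MLXIP, MLXIPL and MLX in each library, in CPM on linear axes from 0, by siRNA group. Symbols are libraries a, b and c and the horizontal line with its bar is the mean and SD (n = 3). The 3 groups overlap for each of the factors.

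Compared per length, MLX and MLXIP were more abundant than the arrestin genes, while MLXIPL lay below TXNIP on average in each group and above ARRDC4 in every library. In control cells the mean CPM per kilobase went from MLX (35.6) through MLXIP (17.3), TXNIP (7.47), ARRDC3 (4.54) and MLXIPL (3.84) to ARRDC4 (1.54). Libraries of ARRDC3 and MLXIPL overlapped, and all other neighbours in this order were separate. With UXS1 siRNA the order was the same and TXNIP, at 4.63 CPM per kilobase, came within reach of ARRDC3 at 4.17 and MLXIPL at 4.04. TXNIP and ARRDC3 were still separate there, while TXNIP and MLXIPL overlapped. With MRPL42 siRNA TXNIP was at 4.30 CPM per kilobase, MLXIPL at 3.90 and ARRDC3 at 3.65, and TXNIP lay above both in every library. MLXIP was the more abundant of the glucose-sensing pair in all 9 libraries, at 16.1 to 18.5 CPM per kilobase against 3.48 to 4.61 for MLXIPL.

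**Figure D3:**
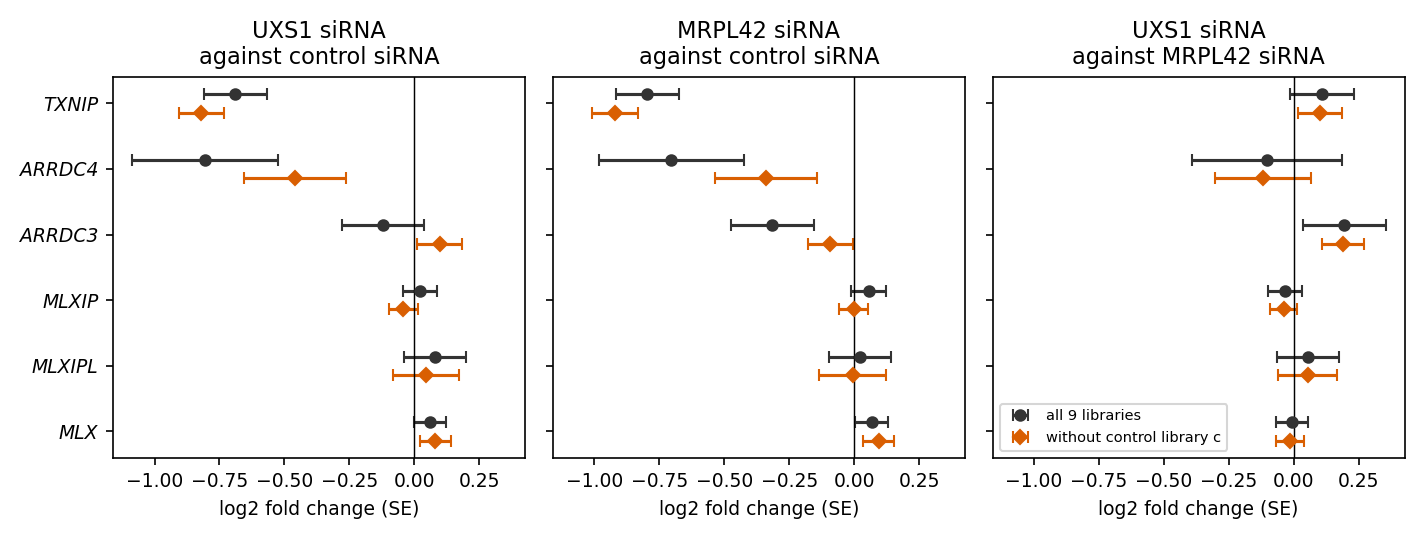
Fitted log2 fold change of the 6 genes in each comparison with control siRNA and between the targeting siRNAs, with bars for the SE, from the fit to all 9 libraries and from the fit without control library c. TXNIP is at -0.69 and -0.80 against control and moves further from 0 without that library, ARRDC4 moves towards 0, and MLXIP, MLXIPL and MLX stay within 0.1 of 0.

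Of the 6 genes, 0 passed an adjusted p of 0.05 in edgeR's quasi-likelihood test in any of the 3 comparisons with all 9 libraries. The background was 0.0158% of tested genes with UXS1 siRNA (2 of 12657), 0% with MRPL42 siRNA and 0% between the targeting siRNAs. Before adjustment, a p under 0.05 was reached by 2 of the 6 genes in each comparison with control and by 0 between the targeting siRNAs, beside 17.8%, 20.2% and 1.72% of all tested genes. DESeq2 called 1 of the 6, TXNIP, in each comparison with control and 0 between the targeting siRNAs, beside 3.97%, 5.8% and 0% of genes. Without control library c edgeR called 1 of the 6, again TXNIP, in each comparison with control, where the background was 1.58% with UXS1 siRNA and 1.33% with MRPL42 siRNA. Libraries did not overlap and were lower for 2 of the 6 genes with UXS1 siRNA, TXNIP and ARRDC4, where 10.9% of tested genes were separate and lower. With MRPL42 siRNA that held for TXNIP, beside 10.5%. Since the genes were chosen with these comparisons known, nothing is read from the counts.

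Facts of the whole series bear on these values. Library totals were 15265959 to 22400560 estimated counts. The targeted transcripts differed little: UXS1 had a log2 fold change of -0.17 with its siRNA (edgeR adjusted p = 0.348) and MRPL42 one of -0.39 with its own (edgeR adjusted p = 0.185), so neither knockdown passed the test at the RNA level. Without control library c these values were -0.08 (edgeR adjusted p = 0.519) and -0.24 (adjusted p = 0.252). Of 18 hepatocyte markers, 4 (APOA1, APOA2, APOC3 and TTR) stayed under 1 CPM per kilobase in every library. Some others were well above it, such as APOH at 32.7 to 47.8, CYP3A5 at 20.5 to 39.3 and FOXA2 at 14.1 to 23.0 CPM per kilobase. The hepatocyte transcription factor HNF4A was at 8.20 to 17.2 CPM per kilobase. In each of these genes the upper end was the value of control library c. The medians over libraries of AFP, SERPINA1 and TF were low, at 0.859, 1.54 and 1.93 CPM per kilobase, while that of FGA was 21.0. Control library c was below all other libraries for 10 of the 18 markers and above them for 4, namely APOH, HNF4A, FOXA2 and CYP3A5. Its mean log2 level of the 14 tested markers of this list, relative to the mean of all libraries, was -1.62 against 0.05 to 0.28 in the others, while its summed level was 417 CPM against 483 to 541 CPM. The fibrinogen gene FGG and the alcohol dehydrogenase gene ADH1C were at 0 in that library. For 17 markers of fibroblasts, endothelium, blood cells and leukocytes its summed level was 454 CPM against 167 to 207 CPM, and most of that gap came from LUM, at 277 CPM against 35.4 to 44.0 CPM. Its mean relative log2 level of the 6 tested markers of this second list was -0.04, within the -0.15 to 0.16 of the others. There PDGFRA and CDH5 were at 0 throughout and 12 of the 17 never reached 1 CPM per kilobase. In the fit to all 9 libraries no marker of either list passed the test: the smallest p-values with UXS1 siRNA were those of FOXA2 (-0.38), APOH (-0.21), LYZ (0.92) and LUM (-1.51), and with MRPL42 siRNA those of APOH (-0.32), CYP3A5 (-0.43), LUM (-1.64) and CD68 (0.21). Without control library c LUM was at 0.16 and 0.04. CD68, a macrophage marker that other cells also express, rose by 0.54 with MRPL42 siRNA in that fit (edgeR adjusted p = 0.00368). Of the 7 markers of the second list tested there, 1 also rose with UXS1 siRNA, where 1.58% of all tested genes were called. The histone genes H2AC6 and H2BC4 were at -0.30 and 0.42 with UXS1 siRNA and at -0.46 and 0.69 with MRPL42 siRNA. These values are from all 9 libraries, where 4 of the 5 tested histone genes were below 0 in each comparison. Without control library c all 5 were above 0 in both, with medians of 0.35 and 0.31. An unadjusted edgeR p under 0.05 was then reached by 3 and 2 of them. The summed level of the histone list was 58.4 CPM in control library c and 23.3 and 23.4 CPM in control libraries a and b. It was 25.5 to 31.2 CPM in the targeting libraries. The cause was not tested. The part that the differing content of control library c plays in the arrestin levels was not tested. A slope of expression on transcript length also differed, at 0.05 to 0.13 log2 units per log2 of length in controls and -0.10 to 0.04 in the targeting libraries. With a correction for length the TXNIP log2 fold changes were -0.68 and -0.78.

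The known partners and effectors of the pathway were read from 11 lists of 144 genes, of which 124 were tested. With all 9 libraries, edgeR called 0 of the 124 in either comparison with control. Unadjusted p was under 0.05 for 29 of the 124 with UXS1 siRNA, beside 17.8% of all tested genes, and for 36 with MRPL42 siRNA, beside 20.2%. DESeq2 called 6 and 12, beside 3.97% and 5.8% of genes, and limma-voom called 0 in both. Without control library c edgeR called 7 with UXS1 siRNA (1 higher and 6 lower), or 5.65% beside 1.58% of all tested genes. With MRPL42 siRNA it called 6 (2 higher and 4 lower), or 4.84% beside 1.33%. All lists were chosen with earlier results of these data known, so no excess over the background is read from these shares. The list values below are from the 8 libraries without control library c unless stated, and adjusted p-values are from edgeR over all 12747 genes. Over those genes the median log2 fold change was -0.01 in both comparisons. An unadjusted p under 0.05 was reached by 19.2% of them with UXS1 siRNA and 19.6% with MRPL42 siRNA, which is the background of the unadjusted counts below. Nothing is read from those counts in short lists.

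Among 10 partners of the MLX and MAX network, proteins that form the same kind of dimer, none passed in either fit. An unadjusted p under 0.05 was reached by 6 with UXS1 siRNA and 4 with MRPL42 siRNA. The median log2 fold changes were -0.20 and -0.10. With all 9 libraries the MAX partners MXD1 and MXD3 had the smallest p-values. MXD1 was at -0.63 (edgeR adjusted p = 0.204) and -0.69 (adjusted p = 0.147). MXD3 was at 0.95 (edgeR adjusted p = 0.233) and 1.07 (adjusted p = 0.173). Without control library c MXD1 was at -0.31 and -0.37 and MXD3 at 0.61 and 0.72.

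Of the other alpha-arrestins, 2 of 3 were tested and neither passed. ARRDC1 was at 0.11 and 0.16 and ARRDC2 at -0.20 and -0.15. These values were 0.22 and 0.26 for ARRDC1 and -0.01 and 0.04 for ARRDC2 with all 9 libraries. The list had 1 unadjusted p under 0.05 with UXS1 siRNA and 0 with MRPL42 siRNA. Beta-arrestins and their VPS26 relatives held 5 tested genes, none of which passed and 0 of which had an unadjusted p under 0.05. The smallest p-values with all 9 libraries were those of ARRB1 (0.26) and VPS26C (-0.08) with UXS1 siRNA and of VPS26A (-0.11) and VPS26B (0.07) with MRPL42 siRNA. Alpha-arrestins act by recruiting NEDD4-family ubiquitin ligases, and none of 9 passed, with 1 and 2 unadjusted p-values under 0.05. ITCH, the ligase known to ubiquitinate TXNIP, was at -0.06 (SE 0.08) and -0.10 (SE 0.08). NEDD4 itself was at -0.41 with MRPL42 siRNA (edgeR adjusted p = 0.0692), and at -0.33 with all 9 libraries. In that fit SMURF1 was at -0.20 with UXS1 siRNA, and SMURF2 at -0.28 with UXS1 siRNA and -0.47 with MRPL42 siRNA.

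In the thioredoxin system, the partner that TXNIP inhibits, 1 of 16 genes fell with UXS1 siRNA and 0 with MRPL42 siRNA, while the median was 0.20 and 0.19. The gene that fell was SRXN1, sulfiredoxin, which repairs oxidised peroxiredoxins, at -0.25 (edgeR adjusted p = 0.0447). Unadjusted p was under 0.05 for 9 and 10 of the 16, of which 8 and 9 were higher. The gene of thioredoxin itself, TXN, was at 0.46 (SE 0.11, edgeR adjusted p = 0.0799) and 0.43 (SE 0.11, adjusted p = 0.0917), and at 0.14 (SE 0.21) and 0.11 (SE 0.21) with all 9 libraries. Thioredoxin reductase TXNRD1 was at -0.10 and -0.08 (SE 0.05 in both). SRXN1 with all 9 libraries was at -0.27 (edgeR adjusted p = 0.165) and -0.22 (adjusted p = 0.135). The peroxiredoxin gene PRDX6 was at 0.32 with UXS1 siRNA and PRDX2 at 0.37 with MRPL42 siRNA in that fit.

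Of 19 genes of glucose uptake and glucose 6-phosphate formation and use, 11 were tested and none passed, with 2 unadjusted p-values under 0.05 in each comparison. SLC2A1 encodes GLUT1, the glucose transporter that TXNIP helps to internalise. Its mean was 126 CPM in control libraries a and b, 116 CPM with UXS1 siRNA and 120 CPM with MRPL42 siRNA. Including control library c raised the control mean to 252 ± 220 CPM (SD, n = 3), so that library held far more SLC2A1 than any other. The SLC2A1 log2 fold change was -0.13 and -0.07 without that library, and -1.13 (SE 0.47) and -1.07 (SE 0.47) with it. HKDC1, a hexokinase family member, was at -0.24 (edgeR adjusted p = 0.0707) with UXS1 siRNA. With all 9 libraries it was at -0.38 and -0.31, and PGM1, a phosphoglucomutase, at 0.16 and 0.15.

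In glycolysis and lactate handling, 1 of 22 tested genes rose with UXS1 siRNA and 2 with MRPL42 siRNA, and none fell. ALDOC, an aldolase, rose by 0.49 (edgeR adjusted p = 0.0331) and 0.51 (adjusted p = 0.0339). ENO2, an enolase, rose by 0.40 with MRPL42 siRNA (edgeR adjusted p = 0.0462). With all 9 libraries none of the 22 passed, so these rises rest on the fit without control library c. The list medians were 0.08 and 0.12 without that library. An unadjusted p under 0.05 was then reached by 7 and 10 of the 22, of which 6 and 8 were higher. In the fit to all 9 libraries the smallest p-values were those of ENO1, another enolase gene, at 0.20 and 0.21 and of the lactate transporter gene SLC16A1 at -0.23 and -0.28. Of 23 lipogenic and glycolytic targets of ChREBP, 18 were tested and none passed, with 4 and 7 unadjusted p-values under 0.05 and medians of 0.00 and 0.06. PNPLA3, a lipid droplet protein encoded by a ChREBP target, was at 0.56 (edgeR adjusted p = 0.137) and 0.60 (adjusted p = 0.109). In the fit to all 9 libraries PNPLA3 was at 0.79 and 0.83, BHLHE40 at -0.42 with UXS1 siRNA and ME1, malic enzyme, at -0.17 with MRPL42 siRNA. None of 7 AMPK subunits passed (1 and 2 unadjusted p-values under 0.05). AMPK is known to phosphorylate TXNIP and mark it for degradation. Fitted to all 9 libraries, the catalytic subunit gene PRKAA2 was at -0.23 and -0.42 and PRKAB2 at -0.16 and -0.26.

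TXNIP is also known to respond to FOXO factors and to glucocorticoids, so targets of both were read. In the list of FOXO and fasting targets 1 of 14 tested genes fell in each comparison. It was IGFBP1, a secreted binding protein of insulin-like growth factors, at -0.91 (edgeR adjusted p = 0.00158) and -0.93 (adjusted p = 0.00153). With all 9 libraries IGFBP1 was at -1.10 (edgeR adjusted p = 0.0836) and -1.12 (adjusted p = 0.0939). In that fit CCNG2 was at 0.22 with UXS1 siRNA and RICTOR at -0.35 with MRPL42 siRNA. The FOXO list had medians of -0.07 and -0.14 without control library c and 0.07 and 0.00 with it, so its direction depends on that library. Without that library 2 and 5 of the 14 had an unadjusted p under 0.05, all lower. Of 10 glucocorticoid targets, 4 fell with UXS1 siRNA and 3 with MRPL42 siRNA, and none rose. MT2A, a metallothionein, fell by 1.17 (edgeR adjusted p = 0.00241) and by 0.90 (adjusted p = 0.0121). ERRFI1, an inhibitor of the EGF receptor, fell by 0.50 (edgeR adjusted p = 0.0017) and 0.51 (adjusted p = 0.00197). ERRFI1 with all 9 libraries was at -0.34 and -0.36, and CEBPD, a C/EBP transcription factor, at 1.11 and 1.25. TSC22D3, known as GILZ, fell by 0.39 (edgeR adjusted p = 0.0102) and by 0.45 (adjusted p = 0.00711), but was at 0.01 and -0.05 with all 9 libraries. KLF9, a transcription factor, was the fourth with UXS1 siRNA and fell by 0.30 (edgeR adjusted p = 0.0465). With all 9 libraries none of the 10 passed, and only ERRFI1 and CEBPD had an unadjusted p under 0.05 in either comparison. The falls of MT2A and KLF9 therefore rest on the fit without control library c. The glucocorticoid list had medians of -0.27 and -0.23 without control library c and 0.05 and 0.05 with it, so its direction rests on that library. Without that library 6 of the 10 had an unadjusted p under 0.05 in each comparison, 5 lower and 1 higher.

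Besides TXNIP, 19 genes had the pair of E-box-like hexamers in a promoter window, and 15 of them were tested. This list was drawn up after the libraries had been examined. Without control library c 1 of the 15, GFPT1, fell in both comparisons and none rose, and the medians were 0.00 and 0.03. GFPT1 encodes the enzyme that opens the hexosamine pathway, the branch that carries fructose 6-phosphate to UDP-GlcNAc. Its level was 395 CPM on average in control libraries a and b, 312 ± 10.8 CPM with UXS1 siRNA (SD, n = 3) and 295 ± 15.4 CPM with MRPL42 siRNA (SD, n = 3). The log2 fold change was -0.35 (SE 0.06, edgeR adjusted p = 0.0218) and -0.43 (SE 0.06, adjusted p = 0.0121), and with all 9 libraries -0.33 (edgeR adjusted p = 0.145) and -0.41 (adjusted p = 0.126). AKAP10, an anchor of protein kinase A, was next in that fit at -0.23 and -0.29. The GFPT1 pair is shown beside that of TXNIP because GFPT1 was the gene of this list that passed. Each is written along the strand that carries the hexamers, in capitals. The TXNIP pair is chr1:145996651-145996667 and the GFPT1 pair, on the strand opposite to the gene, is chr2:69387317-69387333, both on GRCh38.p14.
TXNIP: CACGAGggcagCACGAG
GFPT1: CACGCGccgctCACGCG

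The genes most like TXNIP across libraries were found by the Pearson r of log2 CPM over all 9 libraries. Among 10552 other genes with at least 5 CPM on average the highest were ETV5 (0.961), CHD2 (0.958), HSPA9 (0.957), L3MBTL4 (0.954) and WNT3 (0.951). All 5 were also among the 50 highest over the 8 libraries without control library c, at ranks 14 to 34. The log2 fold changes of these 5 were smaller than that of TXNIP, from -0.39 (ETV5, UXS1 siRNA) to -0.23 (WNT3, UXS1 siRNA). Over the 8 libraries the highest were ERRFI1 (0.982), ITIH2 (0.981), NIBAN1 (0.977), TSC22D3 (0.972) and EPRS1 (0.970), genes named after their values were seen. ITIH2 and TSC22D3 had an r of only 0.02 and 0.13 over all 9. NIBAN1 had log2 fold changes of -0.85 and -0.86 with all 9 libraries, at 5.49 CPM on average. For ARRDC4 the highest of 10553 were RAC1 (0.975), STPG1 (0.967), NDST1 (0.962), TMEM63A (0.958) and FAM120AOS (0.952), of which all 5 stayed among the 50 highest without control library c, at ranks 1 to 23. Over those 8 libraries FBXO10 (0.945), DET1 (0.938) and ZNF670 (0.938) came between RAC1 and STPG1. TXNIP and ARRDC4 correlated with each other at only 0.52 over 9 libraries and 0.63 over 8. Between TXNIP and MLX the r was -0.62 and -0.67, and between ARRDC3 and MLXIP it was -0.85 and -0.55. ARRDC4 and ARRDC3 correlated at 0.73 over 9 libraries but at -0.04 without control library c. These coefficients describe 9 libraries that share 3 group means and 1 divergent library, and have no test.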

How the data were processed

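The authors deposited 1 table with an estimated count for each gene and library, before any scaling for depth or length. Another 9 columns of per-library values were not used. The submitters' processing notes name fastp, Bowtie2, HISAT2, edgeR and hg38. For versions, annotation and counting program the sources used here give nothing. Estimated counts were whole for 83.6% to 84.9% of values above 0 and were rounded to whole numbers, as the design assumed for a count test. Columns were assigned to groups by name. The UXS1 columns carry that name with 2 letters exchanged. The lowest chi-square per gene between any 2 libraries was 3.34, so none was merged as a copy.

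All 9 libraries were fitted together with edgeR 4.0.16 (quasi-likelihood, two-sided) in R 4.3.3 after filterByExpr and TMM scaling. Benjamini-Hochberg adjustment was over all 12657 genes tested, with a threshold of 0.05. CPM uses the TMM-scaled library size, and CPM per kilobase divides it by the length of the principal transcript in GENCODE 29. DESeq2 1.42.0, limma 3.58.1 (voom and library weights), RLE factors, no filter, a length correction (lowess, span 0.3) leaving out each library and, chosen after the data were seen, the column letter as a block were tried. The fit was tested on simulated data. The 6 genes and all lists were chosen with earlier results of these data known. Named are the 6 genes, both targets, from each list and comparison the 2 genes with the largest change among those called or, with none called, the smallest p (in the fit to all 9 libraries), and the 5 genes most like TXNIP and ARRDC4. Genes of the lists called without control library c, ITCH, TXN, TXNRD1, SLC2A1, NIBAN1 and markers were named for their role or after their values were seen. Positions are from GENCODE 29 (GRCh38), and promoters from RefSeq (GRCh38.p14), in which all 6 genes matched.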

Additional observations from a re-analysis of the deposited data

How the results depend on the processing

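The TXNIP log2 difference from control kept its direction under all 18 alternatives run, from -0.82 to -0.57 with UXS1 siRNA and from -0.92 to -0.68 with MRPL42 siRNA. Each moved it by less than 1 SD between libraries (0.147 on the log2 scale). TXNIP was called in 5 of the 18 alternatives in each comparison. The log2 difference of ARRDC4 stayed below 0 in all 18, from -1.01 to -0.41 and from -0.88 to -0.27, and that of ARRDC3 with UXS1 siRNA was below 0 in 15 of 18, reaching 0.15 with the length correction and no control library c. MLXIP and MLXIPL crossed 0 in at least 1 alternative of each comparison with control, within -0.04 to 0.17, and MLX stayed above 0. The count of genes called, 2 with UXS1 siRNA and 0 with MRPL42 siRNA, depended on the processing. With UXS1 siRNA it was 453 with DESeq2 (311 higher, 142 lower), 1315 with library weights (873 higher, 442 lower), 253 with only the 6 libraries compared (231 higher, 22 lower), 8 with the length correction (all lower) and 317 with the length correction and no control library c (128 higher, 189 lower). With MRPL42 siRNA it was 662 with DESeq2 (512 higher, 150 lower), 1897 with library weights (1231 higher, 666 lower), 2 with the length correction (both lower) and 292 with the length correction and no control library c (131 higher, 161 lower). Leaving out 1 library gave 0 to 355 calls with UXS1 siRNA and 0 to 810 with MRPL42 siRNA. The highest counts came without MRPL42 siRNA library b (355 and 810), followed by those without control library c (201 and 169), and the other 7 gave 0. The cause was not tested. Between UXS1 and MRPL42 siRNA 0 genes were called under every alternative, with 218 unadjusted p-values under 0.05. The column letters are not tied to the repeat numbers of the labels, so libraries share only a letter. A fit with the letter as replicate block, chosen after the data were seen, called 0 genes in each comparison (1867 with UXS1 siRNA, 2048 with MRPL42 siRNA and 132 between them at an unadjusted p under 0.05), against 2 with UXS1 siRNA without the block, and put TXNIP at -0.68 and -0.79. Deviations from the group means of same-letter libraries correlated at -0.27 to 0.13 over 9 pairs, and 0 of the 9 libraries correlated best with their own letter in both other groups. Depth limits ARRDC4 most, with as few as 48 counts in a library.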
